A study of Mus musculus with 10 samples.

Results

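The genes described here make, move and export cholesterol. They are 30 genes chosen by name, with earlier results of these data known. Counts over the set, set beside all genes below, therefore describe it and are not independent evidence. Of the 30, 18 encode enzymes of cholesterol synthesis, 5 regulate that synthesis, 4 act in uptake and transport inside the cell, and 3 act in efflux or esterification. On the Affymetrix Mouse Genome 430 2.0 array 28 of the 30 had a probe set that carried their symbol alone, and these are 28 of 18193 genes named on the array. Acat2 and Soat1 had no such probe set and were not analysed here. Each gene was read from its brightest probe set, by the mean log2 signal over all arrays. All 28 exceeded the filter on dim probe sets, so all of them were among the 11405 genes tested.

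The arrays measured total RNA of primary cultures of cerebellar granule precursor cells, the dividing cells of the young cerebellum that become granule neurons. The cultures came from mice at postnatal days 5 to 7 and were of genotype Bmi1 knockout or wild type. They were treated with sonic hedgehog (Shh), a secreted protein that drives these cells to divide, or were left untreated. The 4 groups were Bmi1 knockout with Shh (2 arrays), wild type with Shh (2 arrays), Bmi1 knockout untreated (3 arrays) and wild type untreated (3 arrays). Shh was given for 24 hours at a concentration labelled as 3 mg/ml. All groups shared a medium with 10% fetal calf serum and 20 mM KCl, in which the cells were kept for 24 hours. The labels do not say whether untreated cultures were as old at harvest as treated ones, which part of Bmi1 was deleted, or how many animals each culture came from, and every p-value here covers no more than the variation among these cultures. Wild type untreated replicate 3 carries a treatment note with Shh as a possible addition, but its title places it among the untreated cultures, where it was kept. The 2 Bmi1 probe sets gave signal in every culture: the brighter read 3415.6 to 3432 in knockout and 4165 to 4515 in wild type cultures with Shh, and 3416 to 3904 in untreated knockout and 3673 to 4253 in untreated wild type cultures. The dimmer read 2219 and 2072 in knockout and 2555 and 2042 in wild type cultures with Shh. Untreated it read 1587 to 2163 in knockout and 1731 to 2274 in wild type cultures, so on it the genotypes overlapped under both treatments. Whether the 2 probe sets lie in the deleted part is not known here. They therefore do not check the genotype labels, and knockout and wild type below are as labelled.

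As background, cells build cholesterol from acetyl-CoA through mevalonate, isoprenoids, squalene and lanosterol, and nearly every enzyme of this chain is switched on by the transcription factor SREBP2, the product of Srebf2. When membranes hold enough sterol, the Insig proteins keep the SREBP escort protein Scap in the endoplasmic reticulum and the genes are less active. Excess cholesterol and its oxidised forms act through LXR receptors, which switch on the exporters Abca1 and Abcg1 and the ubiquitin ligase Mylip, which marks lipoprotein receptors for degradation. In the developing brain most cholesterol is made on site. The Shh protein itself carries a bound cholesterol, and its signal transducer Smoothened binds sterols.

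All values are array signals scaled to a common level. The 2% trimmed mean was 500.0 on every array, while the median signal was 71.6 and 72.1 on the knockout arrays with Shh and 66.6 and 71.1 on the wild type arrays with Shh, against 85.0 to 89.6 on the untreated knockout arrays and 84.4 to 90.9 on the untreated wild type arrays. Untreated arrays 6 (knockout) and 1 (wild type) had the highest 18S rRNA control signals, 2260.1 and 993, where the others had at most 595. All 10 markers of granule cell precursors exceeded the filter on dim probe sets. Of these the Shh targets Gli1 and Ptch1 rose with Shh in both genotypes, by 0.57 and 0.92 in knockout and by 1.05 and 0.98 in wild type on the log2 scale. Untreated Gli1 read 1156 to 1199 in knockout and 764 to 857 in wild type cultures. With Shh it read 1550 and 1987 in knockout and 1665 and 1745 in wild type cultures.

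Promoter windows are shown first, because many of these genes moved together. RefSeq windows of GRCm38.p6, from 250 bases before to 50 bases after the gene's start, were found for 24 of the 30 genes. Fdps, Fdft1, Sqle, Npc1, Stard4 and Abcg1 were not among them. Both strands were searched for TCACNCCAC, a form of the sterol regulatory element, for the looser TCACNCNAC, which contains every match to the stricter form, for CCAAT, the core of the NF-Y site, for GGGCGG, the core of the Sp1 site, and for 2 copies of TNACC separated by any 5 bases, a form of the element bound by LXR with its partner RXR. The 5 windows below are those of Hmgcs1 and Nsdhl, the only genes of the 24 with a match to either sterol element, of Msmo1, the member with the largest Shh change, of Tm7sf2, a synthesis gene whose Shh difference did not pass the test, and of Abca1, the member that fell most. The last 3 were chosen after their values were seen. Each is written 5′ to 3′ on the gene's strand, and capitals mark matches to every motif searched except GGGCGG.
Hmgcs1: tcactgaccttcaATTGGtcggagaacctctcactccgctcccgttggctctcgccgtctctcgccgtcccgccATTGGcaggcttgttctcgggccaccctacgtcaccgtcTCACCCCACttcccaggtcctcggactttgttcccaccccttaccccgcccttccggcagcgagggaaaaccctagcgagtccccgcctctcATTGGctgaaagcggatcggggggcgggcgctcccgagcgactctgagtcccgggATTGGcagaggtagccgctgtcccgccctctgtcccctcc
Nsdhl: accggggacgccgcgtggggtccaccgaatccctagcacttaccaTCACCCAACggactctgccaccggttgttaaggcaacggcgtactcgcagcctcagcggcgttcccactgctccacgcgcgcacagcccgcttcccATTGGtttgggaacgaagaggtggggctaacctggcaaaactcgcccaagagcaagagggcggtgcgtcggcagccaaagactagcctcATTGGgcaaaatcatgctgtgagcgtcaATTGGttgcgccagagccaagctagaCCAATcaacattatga
Msmo1: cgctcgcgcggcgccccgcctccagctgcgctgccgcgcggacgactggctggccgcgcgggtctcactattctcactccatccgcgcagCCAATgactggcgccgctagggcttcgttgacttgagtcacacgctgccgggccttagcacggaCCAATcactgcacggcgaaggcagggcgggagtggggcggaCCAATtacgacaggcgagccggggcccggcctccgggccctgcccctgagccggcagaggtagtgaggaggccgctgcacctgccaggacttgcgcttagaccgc
Tm7sf2: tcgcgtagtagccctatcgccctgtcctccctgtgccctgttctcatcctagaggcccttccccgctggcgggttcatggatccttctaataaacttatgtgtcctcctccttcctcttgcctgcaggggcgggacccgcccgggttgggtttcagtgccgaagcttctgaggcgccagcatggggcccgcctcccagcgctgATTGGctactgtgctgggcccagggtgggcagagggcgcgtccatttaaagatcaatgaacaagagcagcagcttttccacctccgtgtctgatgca
Abca1: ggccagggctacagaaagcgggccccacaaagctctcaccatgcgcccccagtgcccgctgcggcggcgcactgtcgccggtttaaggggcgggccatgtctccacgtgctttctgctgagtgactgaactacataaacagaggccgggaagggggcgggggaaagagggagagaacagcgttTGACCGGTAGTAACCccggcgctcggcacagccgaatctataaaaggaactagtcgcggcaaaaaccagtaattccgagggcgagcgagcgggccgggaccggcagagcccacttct

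Hmgcs1 (chr13:119690101-119690400, plus strand) held TCACNCCAC once, starting at position -137 from the gene's start, and 4 CCAAT matches. Nsdhl (chrX:72918271-72918570, plus strand) held the looser element at position -205 and 4 CCAAT matches. Msmo1 (chr8:64733529-64733828, minus strand) held 3 CCAAT matches, and Tm7sf2 (chr19:6067801-6068100, minus strand) held 1. Abca1 (chr4:53159846-53160145, minus strand) held no CCAAT and 1 match to the LXR element, at position -67. Over all 32851 windows, 1.24% held TCACNCCAC, 2.7% held TCACNCNAC, 37.4% held CCAAT, 35.7% held GGGCGG and 0.718% held the LXR element. Counted by gene over any of its windows, CCAAT was in 14 of the 15 synthesis genes with a window and in 4 of the 5 regulators. It was also in 2 of the 2 transport genes with a window (Npc2 and Mylip), in 1 of the 2 efflux or esterification genes, and in 41.1% of all 27025 genes. GGGCGG was likewise in 14 of the 15 synthesis genes, against 38.2% of all genes. It was no trait of synthesis genes alone, being in 23 of the 24 genes with a window, Abca1 and Mylip among them. The LXR element was in Srebf1 as well as Abca1. These matches are letters in a window, with no measurement of binding, and a CCAAT match was present both in genes that changed with Shh and in Tm7sf2.

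The comparison of Shh-treated with untreated cultures asked which cholesterol genes changed with the mitogen in each genotype. A gene is said to rise or fall where limma's moderated test gave a Benjamini-Hochberg adjusted p under 0.05 over all 11405 genes tested. Nearly the whole synthesis pathway rose: 15 of 17 synthesis genes in knockout cultures and 16 of 17 in wild type cultures, with none falling. Their median log2 difference was 0.86 in knockout and 1.01 in wild type, against medians over all genes tested of -0.005 in knockout and -0.01 in wild type. Over all 28 genes of the set, 17 rose and 1 fell in knockout cultures, where 11% of all genes tested rose and 17% fell. In wild type cultures 18 rose and 3 fell, where 14% of all genes tested rose and 19.8% fell. The differences of the 2 comparisons share no array, but their tests share each gene's error, which was estimated over all arrays. The calls are therefore not independent. Of the genes that rose, 16 did so in both, which is 94.1% of those in knockout and 88.9% of those in wild type cultures. In fits with only the arrays of the groups compared, 15 of 17 synthesis genes rose in knockout and 16 of 17 in wild type. Each array was also scaled to its own median signal: the median difference of all genes tested then moved to 0.29 in knockout and 0.33 in wild type, and the rising share of all genes that passed went to 79.4% in knockout and 80.65% in wild type, against 39.39% in knockout and 41.32% in wild type with the deposited scale. Under that scaling 17 of 17 synthesis genes rose in knockout and 16 of 17 in wild type, and over all 28 genes 23 rose in knockout and 22 in wild type, where 38.1% of all genes tested rose in knockout and 45.5% in wild type.

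**Figure D1:**
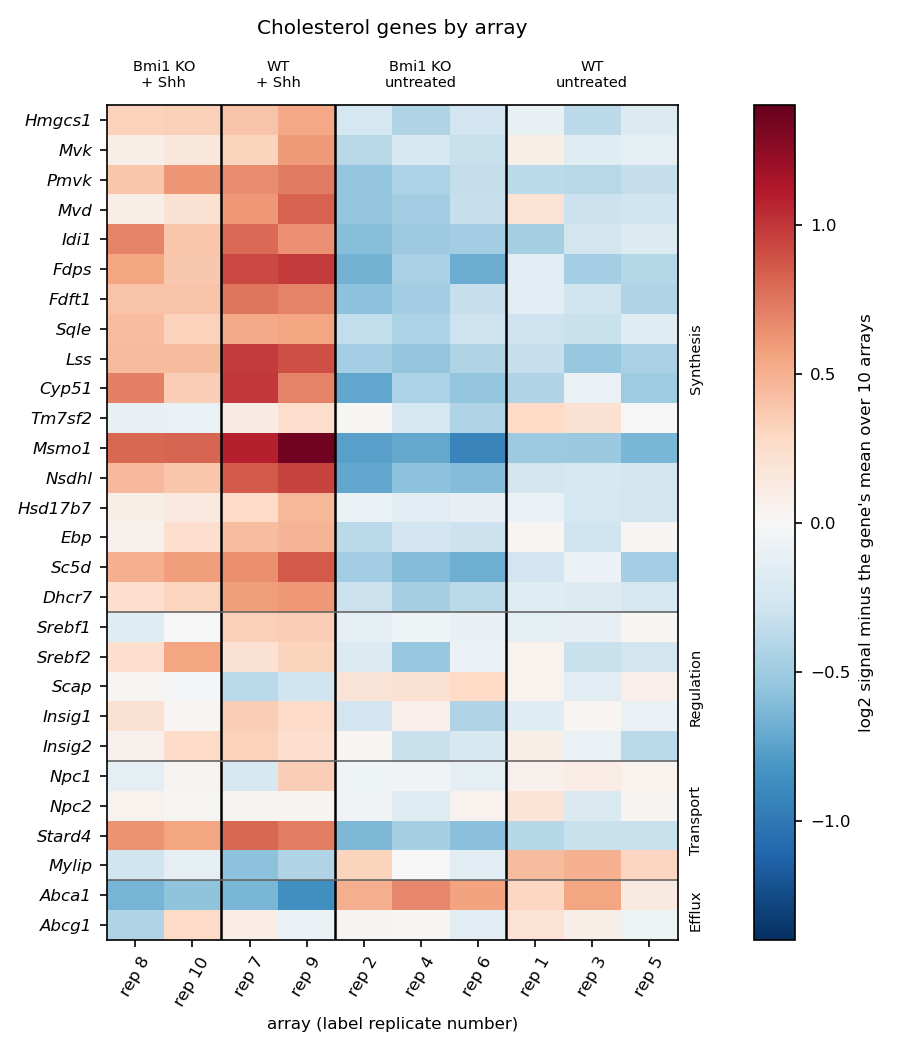
Log2 signal of the 28 cholesterol genes (rows, by role) on the 10 arrays (columns, by group), each minus the gene's own mean over the arrays, with red above and blue below that mean. Most synthesis genes are red on the 4 Shh arrays and blue on the 6 untreated ones, Abca1 shows the opposite, and Tm7sf2, Npc1, Npc2 and Abcg1 show neither.

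The early, mevalonate arm came first in the pathway. Hmgcs1, which condenses acetyl units into HMG-CoA, read 19078 and 19191 in knockout cultures with Shh and 20121 and 22139 in wild type cultures with Shh, against 12806, 11389 and 12699 in untreated knockout and 14227, 11804 and 13312.5 in untreated wild type cultures. All 4 Shh arrays lay above all 6 untreated ones. The difference was 0.64 in knockout (SE 0.11, adjusted p = 0.00273) and 0.69 in wild type (SE 0.11, adjusted p = 0.00146) by limma. Pmvk, the kinase that adds the next phosphate after Mvk, read 1374 and 1611 in knockout and 1664 and 1737 in wild type cultures with Shh, against 719 to 836 in untreated knockout and 805 to 833 in untreated wild type cultures. All its Shh arrays lay above all its untreated arrays, and it rose by 0.94 in knockout and 1.06 in wild type (SE 0.10 each). Mvk, which adds the first phosphate, read 753 and 791 in knockout and 879 and 1076 in wild type cultures with Shh, against 541 to 608 in untreated knockout and 631 to 753 in untreated wild type cultures. Its rise was among the smallest, 0.43 in knockout and 0.53 in wild type (SE 0.12 each), and the knockout call was lost without replicate 2, 6, 8 or 10 and the wild type call without replicate 9. Mvd, the decarboxylase that ends the mevalonate steps, rose by 0.61 in knockout (SE 0.16, adjusted p = 0.0214) and 0.85 in wild type (SE 0.16, adjusted p = 0.00375), and the knockout call was lost without replicate 2, 4, 8 or 10. Idi1, which isomerises the isoprenoid unit, read 7161 and 5785 in knockout and 7692 and 6897 in wild type cultures with Shh, against 2924 to 3150.4 in untreated knockout and 3204 to 3889.7 in untreated wild type cultures. Its groups with and without Shh were far apart, and it rose by 1.07 in knockout and 1.02 in wild type (SE 0.13 each).

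The isoprenoid and squalene steps followed. Fdps, which makes farnesyl diphosphate, read 8148 and 7226 in knockout and 10543 and 10911 in wild type cultures with Shh, against 3499.6, 4048 and 3414 in untreated knockout and 5018, 3979.6 and 4189 in untreated wild type cultures. Its rise was 1.07 in knockout and 1.29 in wild type (SE 0.13 each). Both genotypes had their Shh arrays well above the untreated ones, and the knockout Shh arrays lay below the wild type Shh arrays. Fdft1, squalene synthase, read 7871 and 7875 in knockout and 10017 and 9644 in wild type cultures with Shh, against 4017 to 4754 in untreated knockout and 4445 to 5362 in untreated wild type cultures, and rose by 0.86 in knockout and 1.01 in wild type (SE 0.11 each). Sqle, squalene epoxidase, read 7240.5 and 6719 in knockout and 7775 and 7888 in wild type cultures with Shh, against 3956 to 4390.4 in untreated knockout and 4316 to 4786 in untreated wild type cultures. Its Shh and untreated arrays did not overlap, and it rose by 0.73 in knockout and 0.80 in wild type (SE 0.09 each). Lss closes squalene epoxide into lanosterol, the first sterol ring. Lss read 819 and 819.9 in knockout and 1191 and 1125 in wild type cultures with Shh, against 434, 409.9 and 452 in untreated knockout and 483, 417 and 439 in untreated wild type cultures. The difference was 0.93 in knockout (SE 0.10, adjusted p = 0.000232) and 1.38 in wild type (SE 0.10, adjusted p = 1.84e-05). A second Lss probe set of nearly the same brightness gave 0.30 in knockout and 0.41 in wild type, so the size of the Lss change depends on the probe set. With the mean of all 3 Lss probe sets it was 0.41 in knockout, which did not pass (adjusted p = 0.0739), and 0.72 in wild type.

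Sterol processing after lanosterol held the largest change. Msmo1, the methyl oxidase that removes the C4 methyl groups, read 5233 and 5244 in knockout and 6355 and 7622 in wild type cultures with Shh, against 1760.0, 1823 and 1576 in untreated knockout and 2093, 2091 and 1922 in untreated wild type cultures. The lowest Shh array stood far above the highest untreated array. This was a 3.05-fold rise in knockout (log2 1.61, SE 0.11, adjusted p = 2.58e-05) and a 3.42-fold rise in wild type (log2 1.77, SE 0.11, adjusted p = 1.06e-05), and only 0.491% of all genes tested had a larger difference in knockout and 0.456% in wild type. The only other Msmo1 probe set was too dim for the filter and gave -0.70 in knockout and -0.68 in wild type, and with the mean of both sets the difference was 0.45 in knockout, which did not pass (adjusted p = 0.104), and 0.55 in wild type (adjusted p = 0.0479). Nsdhl, the dehydrogenase of the same demethylation, rose by 1.06 in knockout and 1.15 in wild type (SE 0.09 each), and its values on each array stand with the genotype comparison. Cyp51, which removes the methyl group at C14, read 4364 and 3378 in knockout and 5312 and 4307 in wild type cultures with Shh, against 1610.0 to 1967 in untreated knockout and 1889 to 2505 in untreated wild type cultures, a rise of 1.10 in knockout and 1.18 in wild type (SE 0.17 each). Sc5d, the desaturase of the late steps, read 858 and 911 in knockout and 952 and 1097 in wild type cultures with Shh, against 379 to 435 in untreated knockout and 437 to 573 in untreated wild type cultures. It rose by 1.13 in knockout and 1.03 in wild type (SE 0.13 each). Another Sc5d probe set of nearly the same brightness gave 0.35 in knockout and 0.62 in wild type. A dimmer probe set gave 1.02 in knockout and 0.99 in wild type. The size of the Sc5d change therefore depends on the probe set. With the mean of all Sc5d probe sets the rise still passed limma's test, at 0.83 in knockout and 0.88 in wild type. Shh and untreated arrays did not overlap for Cyp51 or Sc5d. Dhcr7, which makes cholesterol itself from 7-dehydrocholesterol, read 2287 and 2400.0 in knockout and 2922 and 2965 in wild type cultures with Shh, against 1409.9 to 1583 in untreated knockout and 1652 to 1731 in untreated wild type cultures. It rose by 0.65 in knockout and 0.80 in wild type (SE 0.09 each). The sterol isomerase Ebp read 1849.6 and 2103 in knockout and 2394 and 2482 in wild type cultures with Shh, against 1371 to 1479 in untreated knockout and 1463 to 1801 in untreated wild type cultures, with no overlap between Shh and untreated arrays. Ebp rose by 0.46 in knockout and 0.54 in wild type (SE 0.12 each), but did not pass in knockout without replicate 10 (adjusted p = 0.128) or in wild type without replicate 9 (adjusted p = 0.053).

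Hsd17b7 and Tm7sf2 stood apart from the other enzymes. Hsd17b7, the ketoreductase that acts after Nsdhl, read 1092 and 1130.0 in knockout and 1233 and 1415 in wild type cultures with Shh, against 966, 929 and 950.0 in untreated knockout and 961, 865 and 861 in untreated wild type cultures. The difference in knockout was 0.23 (SE 0.10, adjusted p = 0.114), and the gene rose in wild type (0.56, SE 0.10, adjusted p = 0.0024). Hsd17b7 also passed in knockout with arrays scaled to their own medians, at 0.52 (adjusted p = 0.0048). Its 3 dimmer probe sets gave -0.12 to 0.69 in knockout and 0.02 to 0.49 in wild type cultures, and with the mean of all 4 the wild type difference was 0.30 and did not pass (adjusted p = 0.127). Tm7sf2, a sterol reductase whose reaction the lamin B receptor Lbr can also carry out, read 584 and 590.1 in knockout and 679 and 749 in wild type cultures with Shh, against 637, 529 and 469.6 in untreated knockout and 761, 731 and 633 in untreated wild type cultures. Shh and untreated arrays overlapped in both genotypes. The difference was 0.12 in knockout (95% interval -0.20 to 0.43) and 0.01 in wild type (95% interval -0.30 to 0.33). With arrays scaled to their own medians these were 0.41 in knockout, which passed (adjusted p = 0.0466), and 0.36 in wild type, which did not (adjusted p = 0.0626).

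**Figure D2:**
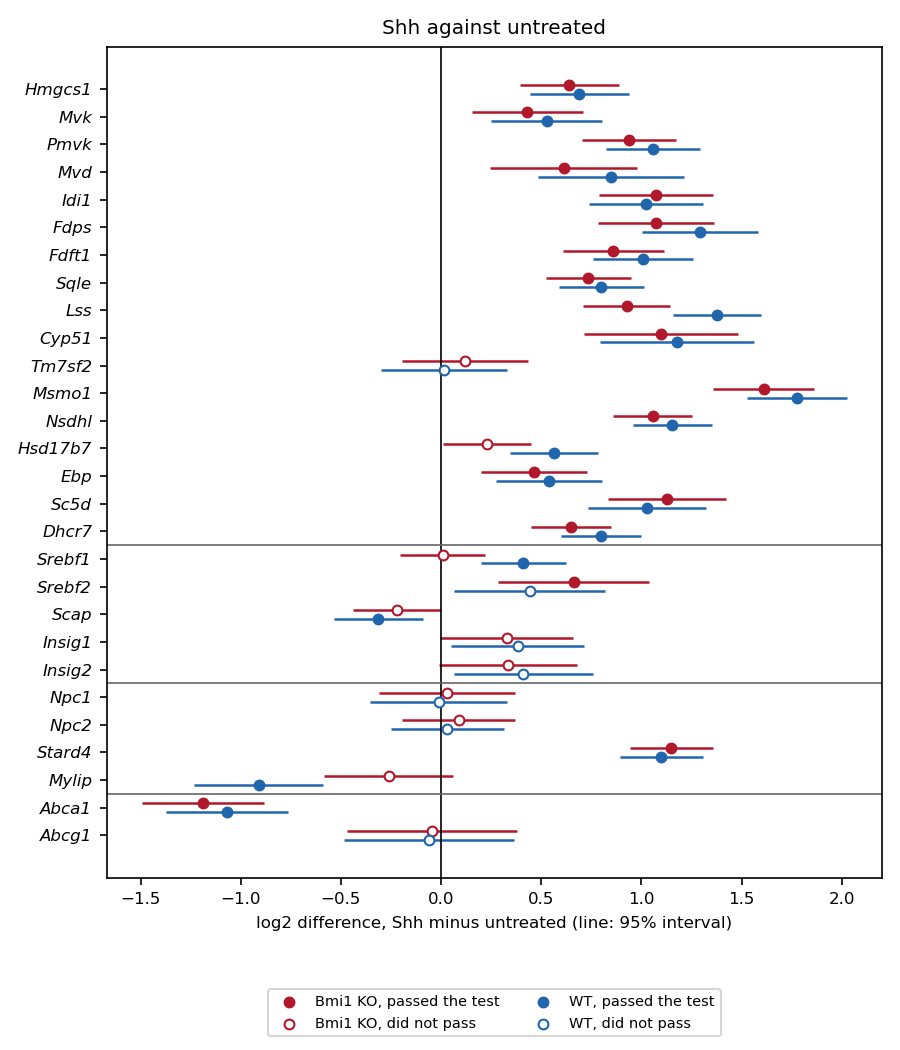
Log2 difference of Shh minus untreated cultures for the 28 genes, in Bmi1 knockout (red) and wild type (blue), with 95% intervals. Filled points passed limma's test. The intervals of the synthesis genes lie right of 0 except those of Tm7sf2, which span 0, while Abca1 lies at -1.19 in knockout and -1.07 in wild type.

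Of the 5 regulators, 1 rose in knockout, and 1 rose and 1 fell in wild type. Among all genes tested 11% rose and 17% fell in knockout, and 14% rose and 19.8% fell in wild type. Srebf2, which encodes SREBP2, read 2803 and 3482 in knockout and 2763 and 2959 in wild type cultures with Shh, against 2085, 1646 and 2238 in untreated knockout and 2459, 1909.8 and 1987 in untreated wild type cultures. Every Shh array lay above every untreated one. The rise passed in knockout (0.66, SE 0.17, adjusted p = 0.0174, lost without replicate 10), and the value was 0.44 in wild type (SE 0.17, adjusted p = 0.0704). The wild type difference passed in 6 of 19 alternative settings, scaling to each array's median among them. Srebf1, which encodes the SREBP that acts mainly on fatty acid genes, read 2806 and 3158 in knockout and 3999 and 4009 in wild type cultures with Shh, against 2906, 3029 and 2948 in untreated knockout and 2901, 2925 and 3226 in untreated wild type cultures. Only the wild type Shh arrays stood apart. The difference was 0.01 in knockout (95% interval -0.20 to 0.22), and the rise in wild type was 0.41 (SE 0.09, adjusted p = 0.00935, lost without replicate 7 or 9). With arrays scaled to their own medians the knockout difference of Srebf1 was 0.30 and passed (adjusted p = 0.0396).

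Scap, the sterol-sensing escort of the SREBPs, had a Shh difference of -0.22 in knockout (SE 0.10, adjusted p = 0.128) and fell in wild type (log2 -0.31, SE 0.10, adjusted p = 0.0354). With arrays scaled to their own medians these values were 0.07 in knockout and 0.03 in wild type, so the sign for Scap depends on the scaling. The wild type call was also lost without replicate 1, 4, 5, 7, 8, 9 or 10. Insig1 and Insig2, which hold Scap back, did not pass. Insig1 differed by 0.33 in knockout (adjusted p = 0.129) and 0.38 in wild type (adjusted p = 0.0743), and Insig2 by 0.33 (adjusted p = 0.138) in knockout and 0.41 (adjusted p = 0.0664) in wild type, by limma. Both passed in both genotypes with arrays scaled to their own medians.

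Of the 4 uptake and transport genes, 1 rose in knockout, and 1 rose and 1 fell in wild type. The shares of all genes tested are those given beside the regulators. Stard4, which carries cholesterol between membranes inside the cell, read 3421 and 3236 in knockout and 3847 and 3645 in wild type cultures with Shh, against 1428, 1604 and 1472 in untreated knockout and 1680.4, 1786 and 1776 in untreated wild type cultures. It rose by 1.15 in knockout (2.22-fold, SE 0.09, adjusted p = 5.05e-05) and 1.10 in wild type (2.14-fold, SE 0.09, adjusted p = 4.44e-05), and its other 2 bright probe sets gave 0.87 and 1.18 in knockout and 1.14 and 1.32 in wild type. Npc1 and Npc2 pass cholesterol out of the late endosome. Neither separated the Shh arrays from the untreated ones. Npc1 read 234 and 266 in knockout and 220.4 and 327 in wild type cultures with Shh, against 237 to 249 in untreated knockout and 267 to 277 in untreated wild type cultures. Npc1 differed by 0.03 in knockout and -0.01 in wild type (SE 0.15 each), and Npc2 by 0.09 in knockout and 0.03 in wild type (SE 0.12 each). The other 2 Npc2 probe sets above the filter gave 0.22 and 0.93 in knockout and 0.35 and 0.77 in wild type. With arrays scaled to their own medians Npc2 passed in knockout (0.38, adjusted p = 0.0414) and in wild type (0.38, adjusted p = 0.0367). Under that scaling 38.1% of all genes tested rose in knockout and 45.5% in wild type.

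Mylip was the 1 transport gene that fell, and it passed in wild type alone. It read 223 and 245 in knockout and 182 and 201 in wild type cultures with Shh, against 336, 271 and 242 in untreated knockout and 367, 382 and 332 in untreated wild type cultures. In knockout 1 Shh array lay above the lowest untreated array, while in wild type both Shh arrays lay well below the untreated ones. The knockout difference was -0.26 (SE 0.14, adjusted p = 0.207), or 0.03 with arrays scaled to their own medians, and the wild type difference was -0.91 (SE 0.14, adjusted p = 0.00139).

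The exporter Abca1 went the other way from the synthesis genes. Its signal was 981 and 1045 in knockout and 991 and 851 in wild type cultures with Shh, against 2194, 2465 and 2269 in untreated knockout and 1881, 2252 and 1683 in untreated wild type cultures. The Shh arrays of either genotype lay far below its untreated arrays. Abca1 fell in knockout (log2 -1.19, SE 0.14, 2.28-fold lower, adjusted p = 0.000358) and in wild type (log2 -1.07, SE 0.14, 2.10-fold lower, adjusted p = 0.000442). A dimmer Abca1 probe set gave -1.02 in knockout and -1.08 in wild type, and the mean of all 3 gave -0.90 in knockout, which did not pass (adjusted p = 0.0535), and -0.97 in wild type (adjusted p = 0.0341). Abcg1, the second exporter, read 439.8 and 711 in knockout and 635 and 554 in wild type cultures with Shh, against 532 to 603 in untreated knockout and 561 to 678 in untreated wild type cultures. Its differences were -0.05 in knockout and -0.06 in wild type (SE 0.19 each), with the Shh arrays spread around the untreated ones. The mean over all Abcg1 probe sets, dim ones included, passed in both genotypes at -1.17 in knockout and -0.82 in wild type, so the reading of Abcg1 depends on the probe set.

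**Figure D3:**
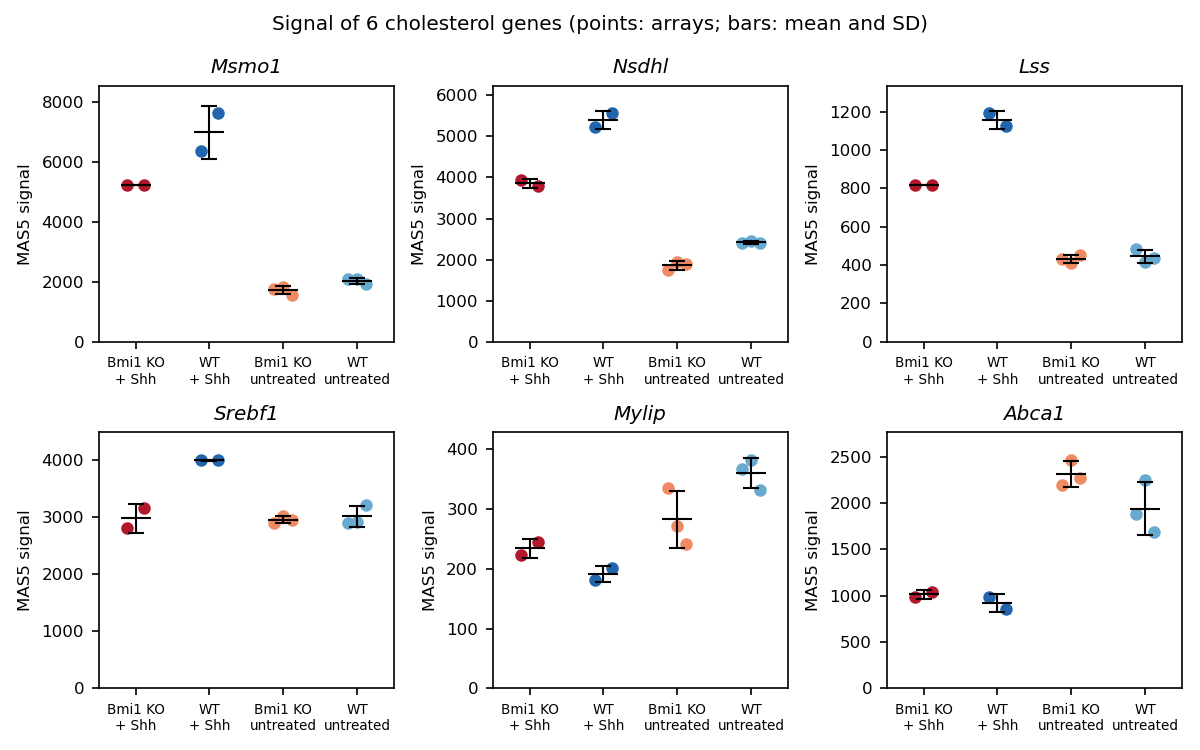
MAS5 signal of 6 genes on every array (points) with the mean and SD of each group (bars), on axes that start at 0. Msmo1, Nsdhl and Lss are higher with Shh, Abca1 is lower, Srebf1 is high only in wild type cultures with Shh, and Mylip has its lowest values there.

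Other genes of cholesterol and isoprenoid metabolism were followed as 51 further genes, of which 44 were tested. Beside the counts below, 11% of all genes tested rose and 17% fell in knockout, and 14% rose and 19.8% fell in wild type. Acetyl-CoA and isoprenoid branch genes had 3 of 13 higher and 1 lower in knockout and 2 of 13 higher and 1 lower in wild type. Icmt, which methylates prenylated proteins, rose by 1.01 in knockout and 1.29 in wild type (SE 0.16 each). Aacs, which activates acetoacetate for lipid synthesis, rose by 0.53 in knockout and 0.76 in wild type (SE 0.13 each), and Acss2, which makes acetyl-CoA from acetate, rose by 0.42 in knockout. Among 7 genes of SREBP processing and reductase turnover, 0 rose and 1 fell in knockout (Erlin1, an adaptor of protein turnover in the endoplasmic reticulum, -0.53). In wild type 1 rose and 0 fell. The gene that rose was Lbr, named above beside Tm7sf2, by 0.43 (adjusted p = 0.0157 by limma). Its difference in knockout was 0.30, which did not pass.

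Of the lipoprotein uptake and sterol transport genes, 4 of 15 fell in knockout and 5 of 15 in wild type, and 0 rose. Over all genes tested 17% fell in knockout and 19.8% in wild type. The lipoprotein receptor Lrp8 read 436 and 263 in knockout and 257 and 209 in wild type cultures with Shh, against 1101, 944 and 1204 in untreated knockout and 783, 1006 and 924 in untreated wild type cultures. It fell by 1.67 in knockout and by 1.96 in wild type on the log2 scale (SE 0.22 each). The endocytic receptor Lrp1 fell by 0.88 in knockout and by 1.32 in wild type. The lipoprotein receptor Vldlr fell by 0.79 in knockout and by 1.03 in wild type. Of 9 genes of efflux, ester hydrolysis and oxysterol signals, the LXR partner Rxra rose by 0.56 in knockout and 0.64 in wild type, and the transporters Abcg4 (-0.58) and Abca2 (-0.46) fell in wild type.

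Markers of several other cell types fell with Shh, where 17% of all genes tested fell in knockout and 19.8% in wild type. Endothelial markers fell in 3 of 3 tested in both genotypes, and Cldn5, a tight junction protein of brain vessels, read 53.0 and 51.1 in knockout and 61.8 and 69.1 in wild type cultures with Shh, against 2309 to 2469.5 in untreated knockout and 1769.7 to 2747 in untreated wild type cultures. The summed signal of 5 endothelial markers was 140.5 to 149.5 in knockout and 177 to 243 in wild type cultures with Shh, against 3357 to 3508 in untreated knockout and 2698 to 3849.6 in untreated wild type cultures. Purkinje cell markers fell in 4 of 4 in both genotypes, with sums of 6638 to 8636 in knockout and 6409 to 6808 in wild type cultures with Shh, against 24320 to 44424 in untreated knockout and 20366 to 34215 in untreated wild type cultures.

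Astrocyte and Bergmann glia markers fell in 8 of 11 in both genotypes, while 2 rose in knockout and 1 in wild type. Their sums were 27357 to 30513 in knockout and 22106 to 23795 in wild type cultures with Shh, against 51897 to 54711 in untreated knockout and 47730 to 62219 in untreated wild type cultures. Oligodendrocyte markers fell in 4 of 7 in knockout and 5 of 7 in wild type, with 1 rising in each, and their sums were 11516 to 14233 in knockout and 10176 to 10757 in wild type cultures with Shh, against 19512 to 25432 in untreated knockout and 23875 to 26863 in untreated wild type cultures. Microglia markers fell in 7 of 13 in both genotypes, with 2 rising in knockout and 1 in wild type. The microglial receptor P2ry12 lay under 26 signal units on all 4 Shh arrays, 3 of them at the floor, against 269 to 370 in untreated knockout and 297 to 477 in untreated wild type cultures. Above 0 lay 3 of the 13 in each genotype. Of these Fcer1g read 303 and 453 in knockout and 467 and 516 in wild type cultures with Shh. Its untreated values were 187 to 238 in knockout and 258 to 345 in wild type cultures. Fibroblast and meningeal markers fell in 3 of 4 in both genotypes, and markers of maturing neurons in 0 of 4 in knockout and 1 of 4 in wild type. Granule cell precursor markers had sums of 71099 to 72549.5 in knockout and 71255 to 71670.4 in wild type cultures with Shh, against 61480.3 to 65141 in untreated knockout and 56678 to 70687 in untreated wild type cultures. In bulk RNA fewer cells of a type and less RNA per cell cannot be told apart, and the part of these shifts in the changes of the cholesterol genes was not tested.

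**Figure D4:**
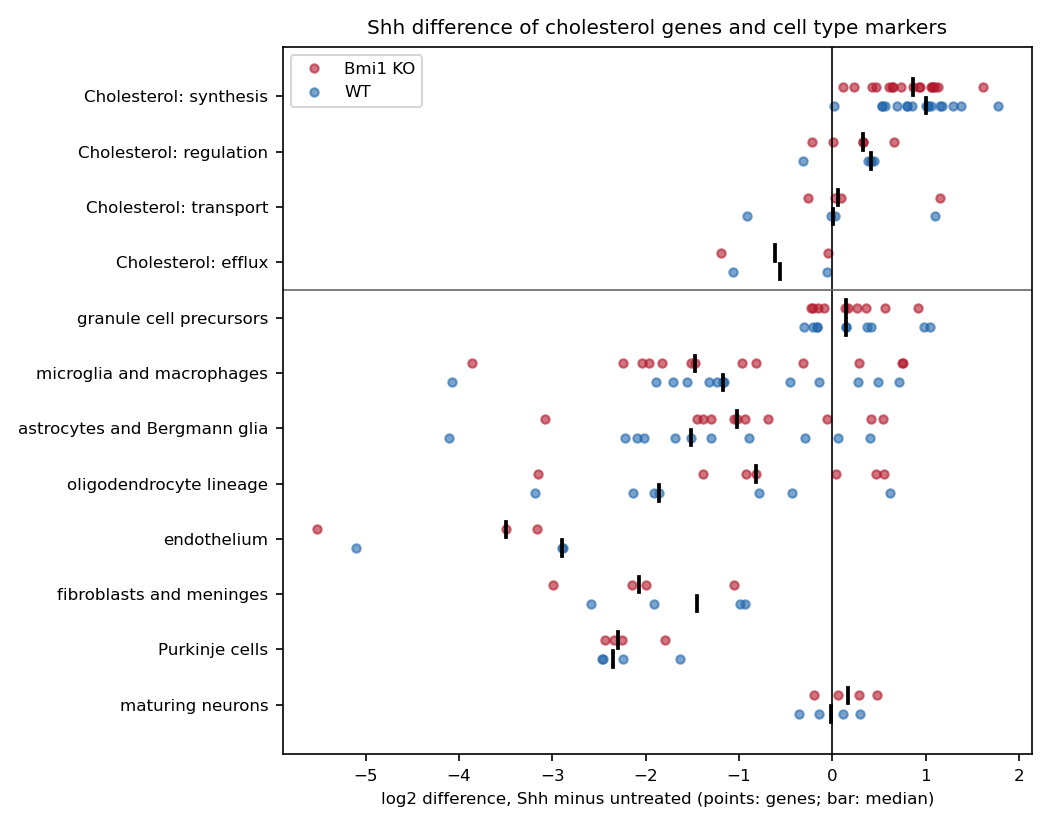
Log2 difference of Shh minus untreated for each gene tested (points) of the 4 cholesterol roles and of 8 lists of cell type markers, in Bmi1 knockout (red) and wild type (blue), with the median of each list (black bar). In knockout the synthesis genes centre on 0.86, granule cell precursor markers on 0.15 and Purkinje markers on -2.30, and in wild type on 1.01, 0.14 and -2.35.

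The comparison of Bmi1 knockout with wild type cultures asked whether the loss of Bmi1 changed the same genes. With Shh, 0 of the 28 genes passed limma's test in either direction, where 0.614% of all genes tested rose and 0.114% fell, and 12 had an unadjusted p under 0.05, as did 9.76% of all genes tested. In untreated cultures 0 of 28 passed, where 0.324% of all genes rose and 0.0526% fell, and 9 had an unadjusted p under 0.05, as did 8.68% of all genes tested. Averaged over both conditions 1 passed, Nsdhl, which was lower in knockout, where 1.22% of all genes rose and 0.324% fell. The values of the synthesis genes nonetheless lay on the same side. With Shh 17 of 17 were below 0 (median log2 -0.32), and untreated 16 of 17 were (median -0.23), where 46.5% of all genes tested were below 0 with Shh (median 0.01) and 44.4% untreated (median 0.02). The 2 comparisons share no array, and 16 of the 17 genes were below 0 in both, as were 25.9% of all genes tested.

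The overlap of the groups was counted gene by gene. In 15 of the 17 synthesis genes both knockout arrays with Shh lay below both wild type arrays with Shh, where 16.8% of all genes tested did so, and in 7 of the 17 all 3 untreated knockout arrays lay below all 3 untreated wild type arrays, where 5.73% of all genes did so. The mean log2 signal of the 17 genes on each array was 11.39 and 11.38 in knockout and 11.67 and 11.74 in wild type cultures with Shh, and 10.57, 10.59 and 10.59 in untreated knockout and 10.85, 10.76 and 10.74 in untreated wild type cultures. By this mean the knockout arrays lay below the wild type arrays within each treatment. The genes are not independent replicates, and these counts describe this set of arrays without a test of the set.

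Nsdhl had the smallest adjusted p of the 28 genes in each of these comparisons. Its signal was 3936 and 3781 in knockout and 5237 and 5559 in wild type cultures with Shh, and 1746, 1938 and 1889.5 in untreated knockout and 2403, 2464 and 2403 in untreated wild type cultures. Knockout and wild type did not overlap under either treatment. The difference was -0.48 with Shh (SE 0.10, adjusted p = 0.0712) and -0.38 untreated (SE 0.08, adjusted p = 0.118), and the average of the 2 was -0.43 (SE 0.06, 1.35-fold lower in knockout, adjusted p = 0.0106). Without wild type Shh replicate 9 the adjusted p of the average was 0.0625, and the call was also lost with replicates 1 and 6 left out together.

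Other synthesis genes had differences of like size that did not pass. Mvd read 1720.2 and 1868 in knockout and 2456 and 2862 in wild type cultures with Shh, and 1094, 1152 and 1282 in untreated knockout and 1846, 1304 and 1323 in untreated wild type cultures. The groups did not overlap under either treatment, with differences of -0.56 with Shh (SE 0.18, adjusted p = 0.264) and -0.33 untreated (SE 0.14, adjusted p = 0.576). Lss differed by -0.50 with Shh (SE 0.11, adjusted p = 0.0942) and -0.05 untreated, while its second probe set of nearly the same brightness gave -0.21 with Shh and -0.10 untreated. Fdps differed by -0.48 with Shh (adjusted p = 0.224) and -0.26 untreated, and Msmo1 by -0.41 with Shh (adjusted p = 0.232) and -0.24 untreated. Tm7sf2 differed by -0.28 with Shh (adjusted p = 0.62) and -0.38 untreated (adjusted p = 0.375). Hsd17b7 was the 1 synthesis gene above 0 in untreated cultures, at 0.08 (95% interval -0.11 to 0.28).

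**Figure D5:**
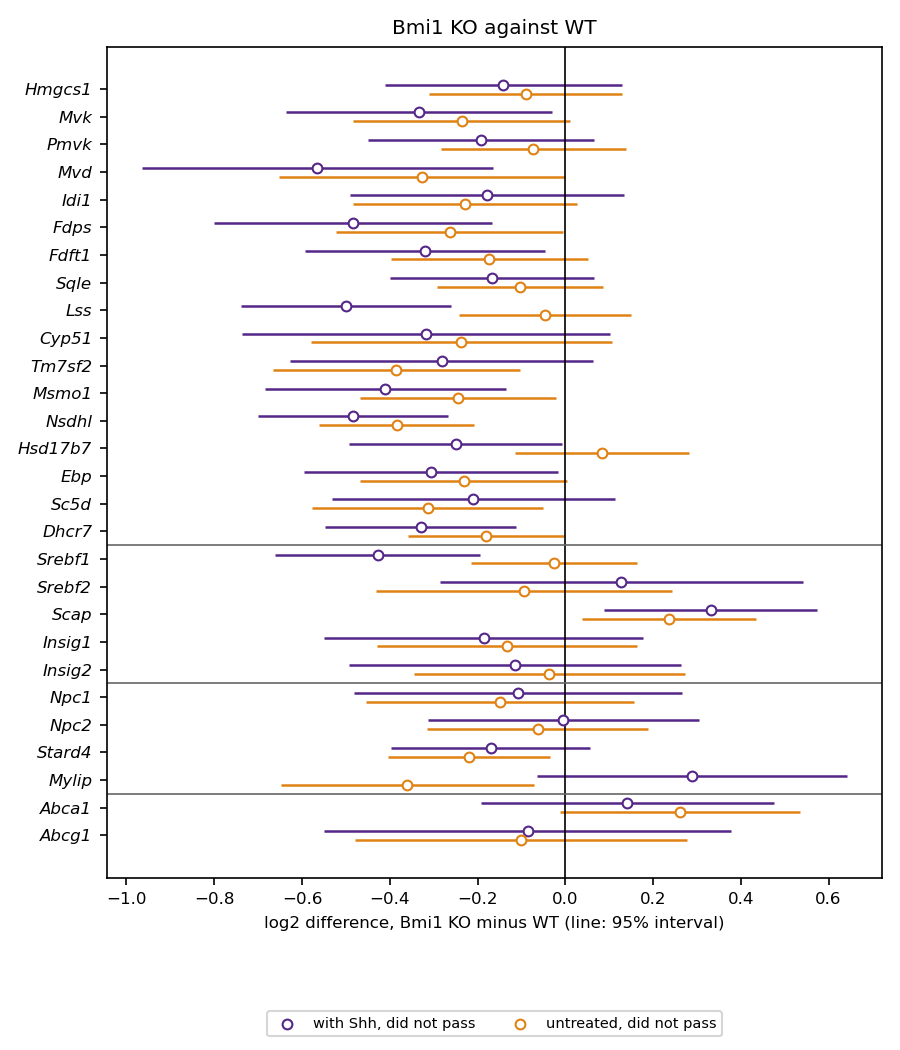
Log2 difference of Bmi1 knockout minus wild type for the 28 genes, with Shh (purple) and untreated (orange), with 95% intervals. Open points did not pass limma's test, and all points here are open. Synthesis genes lie left of 0 except untreated Hsd17b7 at 0.08, and Scap and Abca1 lie right of it in both conditions.

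Of the 11 genes outside synthesis, 7 lay below 0 with Shh, 9 untreated and 7 in both, where 25.9% of all genes tested were below 0 in both, and none of the 11 passed in either condition. Srebf1 was -0.43 with Shh (SE 0.10, adjusted p = 0.133) and -0.03 untreated. Scap lay above 0 in both conditions. It read 2279 and 2211 in knockout and 1723 and 1848 in wild type cultures with Shh, and 2529, 2601 and 2721 in untreated knockout and 2310.5, 2019 and 2341 in untreated wild type cultures, with no overlap under either treatment. Its differences were 0.33 with Shh (adjusted p = 0.286) and 0.24 untreated (adjusted p = 0.456). Stard4 was -0.17 with Shh and -0.22 untreated, and Abca1 was 0.14 with Shh and 0.26 untreated, none of which passed. Mylip changed side, at 0.29 with Shh (adjusted p = 0.618) and -0.36 untreated (adjusted p = 0.437). Of the 44 further pathway genes tested, 1 passed in the genotype average, the oxysterol-binding protein gene Osbpl5, higher in knockout by 0.63 (SE 0.13, adjusted p = 0.048).

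Whether the Shh change itself differed between the genotypes was tested as an interaction. It passed for 0 of the 28 genes, where 0.00877% of all genes tested passed, and 4 of the 28 had an unadjusted p under 0.05, as did 4.92% of all genes tested. The largest interaction was that of Mylip at 0.65 (95% interval 0.19 to 1.10, adjusted p = 0.805), followed by Lss at -0.45 (95% interval -0.76 to -0.14, adjusted p = 0.804) and Srebf1 at -0.40 (95% interval -0.70 to -0.10, adjusted p = 0.822). A second Lss probe set gave -0.11. The calls that Srebf1, Mylip, Scap and Hsd17b7 had in wild type alone, and that Srebf2 had in knockout alone, are therefore not shown to differ between genotypes. With arrays scaled to their own medians, Srebf1, Hsd17b7 and Srebf2 passed in both genotypes. The median interaction of the synthesis genes was -0.10, against 0.00 over all genes tested.

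Some cell type markers also differed between the genotypes. Over all genes tested, 0.614% rose and 0.114% fell in knockout with Shh, and 0.324% rose and 0.0526% fell untreated. Below 0 lay 46.5% of all genes tested with Shh and 44.4% untreated, and above 0 lay 53.5% with Shh and 55.6% untreated. Microglia markers lay below 0 in 13 of 13 in both conditions, with medians of -0.39 with Shh and -0.47 untreated, and the complement gene C1qa was lower in knockout with Shh (-1.25, adjusted p = 0.0111). The summed signal of 14 microglia markers was 4065 to 5591 in knockout and 6569 to 6865 in wild type cultures with Shh, and 8012 to 9020.1 in untreated knockout and 9391 to 13721 in untreated wild type cultures. Oligodendrocyte markers had 3 of 7 higher in knockout with Shh (median 0.94, sums of 11516 to 14233 in knockout and 10176 to 10757 in wild type) and 0 of 7 in untreated cultures. Astrocyte and Bergmann glia markers lay above 0 in 11 of 11 with Shh, where 1 passed, and in 5 of 11 untreated. Granule cell precursor markers had medians of 0.00 with Shh and -0.02 untreated, and 0 of 10 passed. The highest of them untreated was Gli1, at 0.52. The part of these differences in the lower values of the synthesis genes was not tested.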

How the data were processed

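The authors deposited 1 signal intensity per probe set and array, not on a log scale, computed with MAS5 and GCOS 1.2 per the submitters' processing notes. Of 45101 probe sets, 64 controls were left out of tests. The platform annotation gave 1 symbol to 34945, several to 932 and none to 9160, and probe sets with several were not used. A floor was set at the 25th percentile (20.9) before taking log2. Each gene kept its brightest probe set, tested if its mean reached log2 6.25, the median over probe sets. Group means over all 10 arrays were estimated in R 4.3.3 by limma 3.58.1 (lmFit, eBayes, 6 residual and 3.11 prior degrees of freedom), with two-sided tests, Benjamini-Hochberg adjustment over 11405 genes per comparison and a threshold of 0.05. The fit was tested on simulated data. Errors are SE of the model unless given as SD, and the number of arrays limits the precision. The running numbers name no pairs. The members and the other gene lists were chosen with earlier results of these data known. All 30 members may be named, and of the other pathway genes at most the 8 with the largest change among those that passed in each comparison. Alternatives were another scaling, floor, filter, probe set rule, prior, choice of arrays and a block.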

Additional observations from a re-analysis of the deposited data

How the results depend on the processing

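The number of arrays and probe set choice limit these results. Of 19 alternatives, none changed the sign of a synthesis median. It ranged with Shh from 0.57 (mean of all probe sets) to 1.15 (scaling to the array median) in knockout and from 0.68 to 1.36 in wild type under the same 2 settings. In the genotype comparisons 0 genes fell with either treatment; without the filter on dim probe sets 1 fell with Shh and 1 untreated, and with a trended, robust prior 2 and 1. Of the average, 1 fell, against 2 without the filter, 5 with the trended, robust prior (where 1 rose), 0 without replicates 1 and 6, and 0 to 1 leaving out 1 array. Leaving out 1 array, 13 to 17 genes rose with Shh in knockout and 15 to 20 in wild type. With the mean of all probe sets Lss, Msmo1, Mvk and Abca1 did not pass in knockout, nor Hsd17b7 in wild type. Over all genes tested, the counts between genotypes varied with the setting: 70 rose and 13 fell with Shh, but 3 and 0 with only the arrays compared, and 32 and 0 without replicate 9. Untreated, 37 rose and 6 fell, but 9 and 1 without replicates 1 and 6. Of the average, 139 rose and 37 fell, but 64 and 16 without replicates 1 and 6. With Shh, array median scaling called 4349 higher and 1128 lower in knockout and 5182 higher and 1243 lower in wild type, against 1260 and 1939 in knockout and 1593 and 2262 in wild type. Without replicate 9 Mvk and Ebp did not pass in wild type, and without replicate 10 Ebp did not in knockout.

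Some values changed sign. With Shh, array median scaling gave Scap 0.0712 in knockout and 0.0337 in wild type, Npc1 0.34 in wild type, Abcg1 0.25 in knockout and 0.29 in wild type, and Mylip 0.0301 in knockout. Quantile normalization gave Srebf1 -0.0363 in knockout and Npc1 0.19 and Npc2 -0.0414 in wild type. Without replicates 1 and 6 Abcg1 was 0.0036 in wild type, and the genotype average of Mylip was 0.0244. The mean of all probe sets gave Hsd17b7 -0.0753 between untreated genotypes. Leaving out 1 array, the Shh difference in knockout ranged from -0.0774 to 0.0934 for Srebf1, -0.0616 to 0.12 for Npc1 and -0.39 to 0.30 for Abcg1. That in wild type ranged from -0.0643 to 0.0851 for Tm7sf2, -0.30 to 0.27 for Npc1, -0.078 to 0.12 for Npc2 and -0.16 to 0.0367 for Abcg1. Between genotypes, the untreated difference ranged from -0.0944 to 0.0117 for Lss and -0.0534 to 0.0232 for Srebf1, and the average for Mylip from -0.10 to 0.0173. The cause was not tested.

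A replicate block on consecutive numbers, whose untreated arrays correlated at 0.120 to 0.278 over genes against -0.265 to 0.0529 for other pairings, changed no member's call, and with it Nsdhl passed in the genotype average (adjusted p = 0.0406). The correlations used each array's deviation from its group mean. Such deviations cancel within a group, so a positive value for consecutive arrays partly fixes lower values for the other pairings in advance.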
